A study of Mus musculus with 6 samples.

Results

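Aminoacyl-tRNA synthetases are the enzymes that join each amino acid to its transfer RNA, and the ribosome can read a codon only if the matching tRNA has been charged. The 35 synthetase genes described here were taken by name from a deposited table of ribosome footprints in mouse oocytes that held 22416 genes. Of these, 19 encode enzymes that work in the cytosol. The other 16, with names ending in 2, encode enzymes that are made in the cytosol and imported into mitochondria. The split follows the names. No Gars2 or Kars2 was among the members, so any part of Gars and Kars that serves mitochondria is counted as cytosolic. All 35 were present in the table under their older symbols (Aars, Cars and so on). The rule reads gene names and no measured value, but the group was proposed with earlier results of these data known.

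The footprints came from Ribo-lite, which is ribosome profiling scaled down to few cells and sequences the pieces of mRNA shielded by ribosomes from RNase I. There were 6 libraries of 500 oocytes each in 3 groups with 2 libraries per group. WT_FGO were fully grown oocytes that still had their germinal vesicle, WT_MII were oocytes matured in culture to metaphase II with the solvent DMSO, and Treat_MII were treated metaphase II oocytes. The labels call the last group only treated, and in the study's methods the agent is BYBX, a ligand that stabilizes RNA G-quadruplexes (rG4s), the stacked structures that G-rich RNA can form. All oocytes were wild type and came from female mice of 4 weeks that received 5 IU of PMSG (a gonadotropin that makes follicles grow) 44 h before collection, so the hormone priming was shared by the 3 groups, and both metaphase II groups shared the culture. The labels do not say whether the libraries of a group came from separate animals or pools, so p-values measure only the spread between these libraries, which may be technical.

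A cell holds separate protein synthesis systems in the cytosol and in mitochondria. The cytosolic synthetases serve all nuclear-encoded mRNAs, and several of them (Dars, Eprs, Iars, Kars, Lars, Qars and Rars among those measured) sit together in the multisynthetase complex. The mitochondrial synthetases serve only the small set of proteins encoded by mitochondrial DNA. Histidyl-tRNA synthetases Hars and Hars2 lie on opposite strands and overlap at their ends. Growing oocytes are rich in mitochondria, and from full growth until after fertilization they make almost no new mRNA, so protein output in this window depends on which stored mRNAs ribosomes use.

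Values are FPKM, that is, footprints per kilobase of coding sequence and scaled to the reads of the library, so they can be compared between genes per length. They are shares of each library, and fewer oocytes yielding footprints and fewer footprints per oocyte cannot be told apart. The libraries were shallow, with 94309 and 107251 reads in WT_FGO, 164972 and 230907 in WT_MII and 331304 and 275604 in Treat_MII, as recovered from the steps of the FPKM values. A single read in 1 kb of coding sequence was thus worth between 3.02 and 10.6 FPKM. The 10 oocyte markers, such as the zona pellucida genes, summed to between 9876 and 55674 FPKM and were all above 0 in each library but WT_FGO replicate 2, where Dazl was at 0. The sum was highest in WT_FGO, whereas Dazl and Mos were higher in both metaphase II groups. The 14 markers of granulosa or cumulus cells, the somatic cells around the oocyte, summed to 1399 FPKM in WT_FGO replicate 2 and to between 115 and 293 FPKM in the other libraries. From 5 to 9 of these 14 markers were at 0 in each library, Tnfaip6 in all of them.

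The G-quadruplex motif, which the ligand of the study is meant to bind, was searched as 4 runs of 3 or more G, parted by 1 to 7 bases, in the longest coding transcript of each gene (GRCm38, GENCODE M21). It was found in 4 of the 35 synthetase genes, or 11.4%, against 19.7% of the 14868 tested genes with such an annotation. None of the 35 held it in the 5′-UTR, where 6.93% of tested genes did. The search covered the transcript strand only, and a match is a stretch of letters and not a measured structure. The 4 matches are shown because they are the places in synthetase mRNAs where the motif of the ligand occurs, and capitals mark the runs of G.
Cars2: GGGccgcgctGGGtctcGGGcggcgcGGG
Aars2: GGGagatGGGagacactGGGccttgtGGG
Aars: GGGttactGGGcagtGGGgaaggcGGG
Fars2: GGGgaGGGGtgtgtgtGGGgGGGGGGG
The match in Cars2 lay near the start of the coding sequence, at chr8:11550606-11550634 on the minus strand, and that in Aars2 in the coding sequence at chr17:45508912-45508940 on the plus strand. The matches in Aars and Fars2 lay in the 3′-UTR, at chr8:111057043-111057069 and chr13:36724148-36724174, both on the plus strand, and in Fars2 the last runs of G are parted by a single G. The footprint values of these genes are given below with the treatment.

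The 35 genes were not alike in level. Cytosolic members had a median of 43.5 FPKM over the 6 libraries and mitochondrial members a median of 5.92 FPKM, beside 7.83 FPKM for all 15127 genes tested. All 19 cytosolic members passed the filter of a mean of 1 FPKM, and 17 had footprints in every library. Of the 16 mitochondrial members, 15 passed, 8 had footprints in every library, and Pars2, the mitochondrial prolyl-tRNA synthetase, was listed at 0 in all 6. The middle mitochondrial member rested on 11 reads over all libraries and the middle cytosolic member on 119. For 9 mitochondrial and 2 cytosolic members fewer than 20 reads were recovered in all, and single changes of these genes rest on a few reads.

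**Figure D1:**
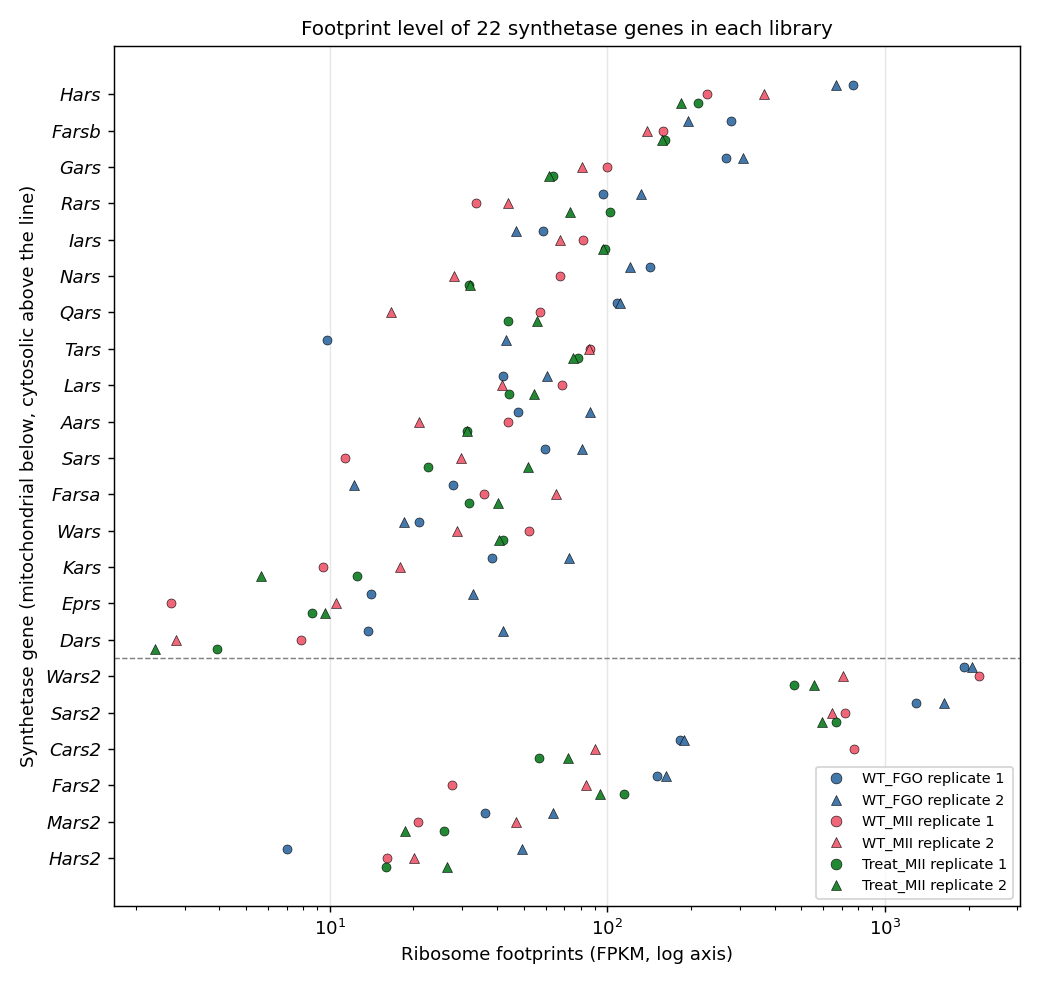
Footprint level (FPKM, log axis) of the 22 synthetase genes whose mean reached 10 FPKM in each of the 6 libraries, mitochondrial genes below and cytosolic genes above the dashed line. Wars2 and Sars2 stand to the right of all cytosolic genes in every library, and Cars2 in WT_MII replicate 1, at 771 FPKM, is far from its other 5 values.

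In spite of the low median of their class, the 2 synthetase genes with the highest mean level were mitochondrial. Wars2, which charges mitochondrial tRNA for tryptophan, ranked 85 among all genes with a mean of 1317 FPKM over the 6 libraries, and Sars2, which does so for serine, ranked 123 with 925 FPKM. Hars followed at rank 274 with 403 FPKM as the highest cytosolic member, and Cars2, for mitochondrial cysteine, at rank 515 with 227 FPKM. Wars2 and Sars2 together made up between 77.2% and 88.0% of the summed mitochondrial level in each library.

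The summed level of the 19 cytosolic members was 2017 and 2055 FPKM in WT_FGO, 1050 and 1055 in WT_MII and 1002 and 984 in Treat_MII. The means were 2036 ± 26.8, 1053 ± 3.84 and 993 ± 12.7 FPKM (SD, n = 2 each), so the drop from fully grown to metaphase II oocytes exceeded the spread between libraries, while both metaphase II groups lay close together. No test was run on these sums. Hars alone gave 715 FPKM of the WT_FGO mean, and without it the sums were 1321 ± 100 FPKM, 756 ± 92.9 and 795 ± 6.21 FPKM, so the small SDs of the full sums partly came from Hars and the other members offsetting each other.

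The summed level of the 16 mitochondrial members did not settle into groups in the same way. It was 3663 and 4220 FPKM in WT_FGO, 3758 and 1610 in WT_MII and 1370 and 1399 in Treat_MII. The control metaphase II libraries were therefore on both sides of a wide gap, one inside the WT_FGO range and the other near the treated libraries. Once Wars2, Sars2 and Cars2 were set aside the other 13 mitochondrial members summed to 258 and 331 FPKM in WT_FGO, 84.5 and 172 in WT_MII and 180 FPKM in each Treat_MII library. The sum of all 16, divided by the cytosolic sum, came to 1.82 and 2.05 for WT_FGO, to 3.58 and 1.53 for WT_MII, and to 1.37 and 1.42 for Treat_MII. Without the 3 high genes this ratio lay between 0.0804 and 0.183 in the 6 libraries.

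**Figure D2:**
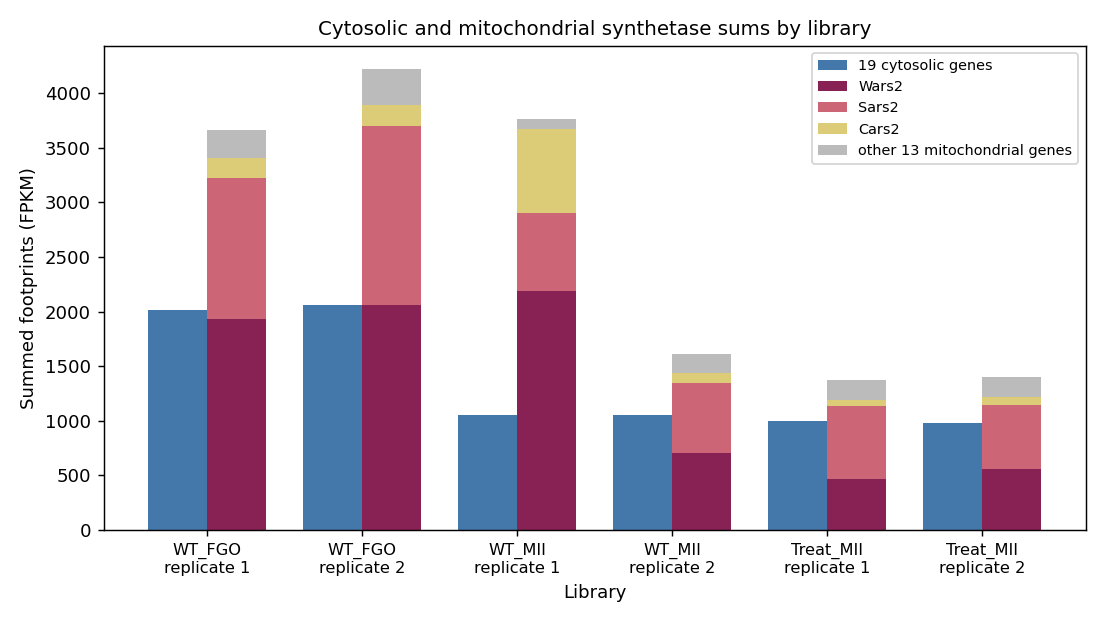
Summed FPKM of the 19 cytosolic genes (left bar) and of the 16 mitochondrial genes (right bar, stacked into Wars2, Sars2, Cars2 and the other 13) in each library. The cytosolic bar falls from about 2036 FPKM in WT_FGO to about 1053 and 993 FPKM in the metaphase II groups, while the mitochondrial bar of WT_MII replicate 1 stays at 3758 FPKM through Wars2 and Cars2.

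Each of 15 amino acids had both a cytosolic and a mitochondrial enzyme in the table, and the 2 partners were compared within each library as the log2 ratio of FPKM + 1. For methionine the cytosolic partner was Mars1, for glutamate the joint enzyme Eprs, and for phenylalanine Farsa, the alpha subunit. The cytosolic gene was higher in all 6 libraries for 9 pairs (Aars, Eprs, Hars, Iars, Lars, Nars, Rars, Tars and Vars). The mitochondrial gene was higher in all 6 for 4 pairs, namely Cars2, Mars2, Sars2 and Wars2. Fars2 was above Farsa in 5 libraries and below it in WT_MII replicate 1, and the Farsa values in WT_FGO came from 4 and 2 reads. The direction for phenylalanine turned with the subunit, since Farsb, the beta subunit, was above Fars2 in all 6 libraries. For tyrosine both genes were at or near 0 in several libraries.

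**Figure D3:**
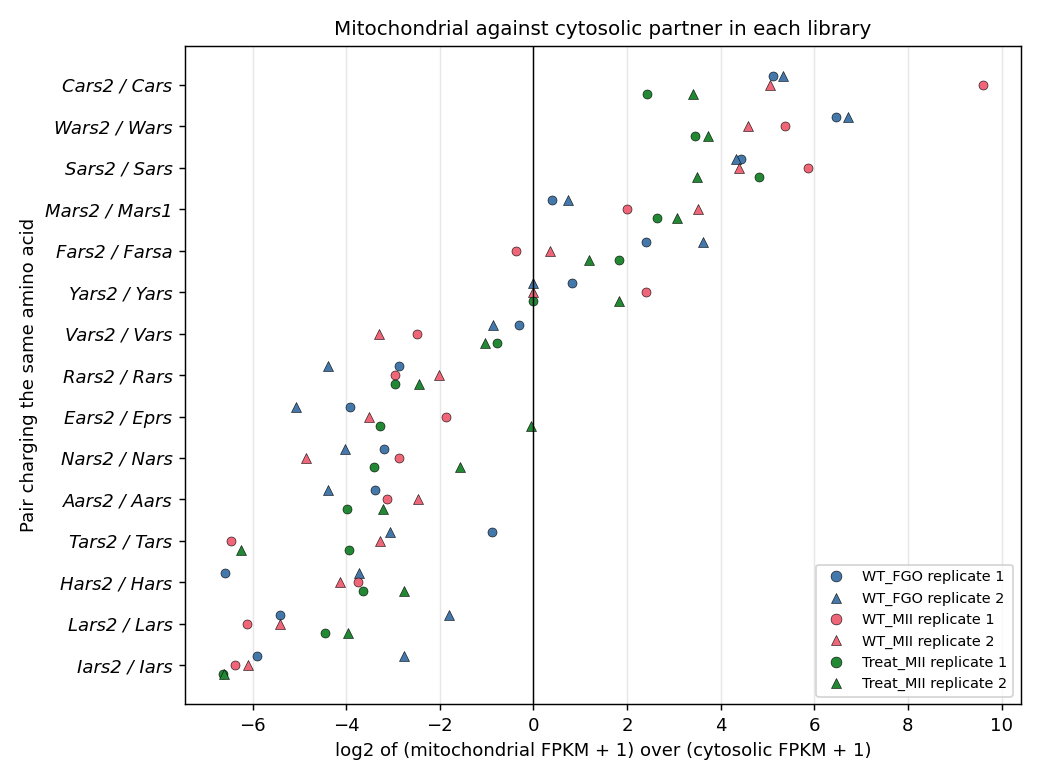
Log2 ratio of mitochondrial over cytosolic FPKM + 1 for the 15 pairs of genes that charge the same amino acid, with a point for each library. Wars2 over Wars lies between 3.45 and 6.73 and Sars2 over Sars between 3.49 and 5.86, while Hars2 over Hars lies between -6.59 and -2.76.

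The Wars2 ratio moved in an ordered way. On the log2 scale it stood at 6.45 and 6.73 for WT_FGO, at 5.37 and 4.57 for WT_MII, and at 3.45 and 3.73 for Treat_MII, so the 3 groups did not overlap. Wars, the cytosolic partner, was the lower side of the pair. It had 21 and 18.5 FPKM in WT_FGO, 52.0 and 28.6 in WT_MII and 41.9 and 40.7 in Treat_MII. Each WT_FGO value of Wars came from 3 reads, so the WT_FGO ratios are only loosely set. Wars2 itself overlapped between WT_FGO and WT_MII. In WT_MII replicate 1 it was at 2187 FPKM, above the 1927 and 2063 FPKM of WT_FGO, so the lower ratio of that library came from Wars. The Mars2 ratio ran the other way, from 0.40 and 0.75 in WT_FGO to between 2.00 and 3.52 in the 4 metaphase II libraries. There Mars1, the cytosolic methionine enzyme, had only 1.33 to 4.44 FPKM, and its reads could not be recovered as whole numbers. The shift thus rests on low values of Mars1, while Mars2 itself overlapped between WT_FGO and WT_MII. No test was run on ratios.

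The first comparison asked which synthetase genes changed between fully grown and control metaphase II oocytes (maturation). On log2(FPKM + 1), limma with Benjamini-Hochberg adjustment over all 15127 genes called 2 of the 34 tested members, Gars and Sars2, both lower. Of all genes 3.09% were called lower and 6.76% in either direction. The median change of the cytosolic members was -1.53, that of the mitochondrial members -0.89 and that of all genes -0.44. Among genes with at least 60 reads in all, these medians were -1.18 for 14 cytosolic members and -0.68 for 5 mitochondrial members. For all 2706 such genes the median was 0.23. This filter sums reads over libraries of unequal depth, with the fewest reads in WT_FGO. It therefore favours genes that are higher at metaphase II, among the members and among all genes. The filter of a mean of 1 FPKM leans the other way, since a single read is worth the most FPKM in WT_FGO. Genes seen only in WT_FGO, such as Yars and Iars2, pass it and can only come out lower. At a mean of at least 5 FPKM the medians were -1.30 for cytosolic and -0.65 for mitochondrial members. With members at the floor of 3 reads per library in a group set to their bound, the medians were -1.30 over 17 cytosolic and -0.59 over 10 mitochondrial members. Centring each library on its median moved the median of all genes by 0.62 on the log2 scale, to 0.17, and quantile normalization moved it by 0.42. Relative to the median of all genes the cytosolic median lay at -1.09 as fitted and at -1.09 and -1.12 after these scalings, and the mitochondrial one at -0.45, -0.45 and -0.81.

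Gars, glycyl-tRNA synthetase, had 267 and 307 FPKM in WT_FGO and 99.8 and 81.2 in WT_MII, and both Treat_MII libraries were lower still at 63.5 and 61.4 FPKM. The 3 groups did not overlap. Gars fell by 1.66 ± 0.35 (SE) on the log2 scale with maturation (limma, adjusted p = 0.0466), a 3.17-fold difference of means. Sars2 had 1296 and 1636 FPKM in WT_FGO, 715 and 645 in WT_MII and 665 and 593 in Treat_MII, and its WT_FGO libraries lay above the other 4. Sars2 fell by 1.10 ± 0.23 (limma, adjusted p = 0.0452), a 2.16-fold difference of means that rested on 1567 reads over the 6 libraries. Both calls were close to the threshold. With a library left out in turn, limma kept Gars under it without either WT_FGO library or without WT_MII replicate 1, and gave adjusted p-values from 0.0582 to 0.118 otherwise. Sars2 stayed under it without WT_FGO replicate 1 and had adjusted p-values from 0.0732 to 0.164 without any other library. Over the alternative settings the adjusted p ranged from 0.000369 to 0.219 for Gars and from 5.93e-06 to 0.422 for Sars2. Voom called both genes whichever library was left out, with adjusted p-values up to 0.0216 for Gars and 0.00688 for Sars2.

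The recovered reads were also fitted with limma voom, which weights each value by its precision. That fit called 9 of the 33 members with reads, all lower: Gars, Hars, Nars, Qars and Rars of the cytosol and Fars2, Sars2, Vars2 and Wars2 of mitochondria. Of all genes this fit called 10.8% lower, 5.51% higher and 16.4% in either direction. It adds the same small count to every library, and WT_FGO had the fewest reads. Genes with few reads are therefore pushed toward lower at metaphase II. Ears2, with 0 reads in WT_FGO and WT_MII, had a voom change of -0.96, and the voom median of all genes was -0.92. Of the 9 called members, Vars2 had 12 reads over the 6 libraries and the others had at least 60. With a library left out in turn, voom called between 6 and 12 members.

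Among the free-standing cytosolic enzymes, Hars held 767 and 664 FPKM in WT_FGO, 228 and 365 in WT_MII and 211 and 184 in Treat_MII. Its maturation change was -1.30 ± 0.33 (limma, adjusted p = 0.0729), and it passed in the voom fit (adjusted p = 0.000399, range over all alternatives up to 0.406). Nars, asparaginyl-tRNA synthetase, went from 143 and 120 FPKM in WT_FGO to 67.5 and 27.9 in WT_MII, with 31.8 and 31.9 FPKM after treatment. Farsb, the beta subunit of the phenylalanine enzyme, had 278 and 195 FPKM in WT_FGO and 159 and 139 in WT_MII, a change of -0.64 ± 0.34 that passed in neither fit, and its treated libraries held 162 and 158 FPKM. Its alpha partner Farsa was on the other side of 0, with 27.8 and 12.2 FPKM in WT_FGO and 35.8 and 65.4 in WT_MII, then 31.7 and 40.5 FPKM in the treated libraries. The 2 subunits of a single enzyme thus had changes of opposite sign, neither of which passed the test. The WT_FGO values of Farsa rested on 4 and 2 reads.

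Of the complex members, Rars had 96.4 and 132 FPKM in WT_FGO and 33.7 and 43.7 in WT_MII, with groups apart. Qars had 109 and 111 FPKM in WT_FGO and 56.9 and 16.6 in WT_MII, with 43.8 and 55.8 FPKM after treatment. Kars, which charges lysine, had 38.4 and 72.4 FPKM in WT_FGO and 9.42 and 17.9 in WT_MII, with 12.5 and 5.64 FPKM after treatment. Eprs, the joint enzyme for glutamate and proline, went from 14.0 and 32.9 FPKM to 2.67 and 10.5 FPKM and stood at 8.65 and 9.60 FPKM after treatment. The WT_MII libraries of these 3 genes, of Eprs and of Dars all lay below both WT_FGO libraries. Dars, for aspartate, was at 7.84 and 2.80 FPKM in WT_MII and at 3.90 and 2.35 FPKM after treatment. It was at or under 3 reads in both WT_MII libraries, so that its level was at least 2.77-fold lower. Iars, for isoleucine, lay the other way with 58.8 and 46.8 FPKM in WT_FGO and 81.6 and 67.5 in WT_MII and 98.0 and 96.8 after treatment, and 22.6% of its 28-base words were shared with Gm4849, so its reads may not all be its own. Lars overlapped between the groups, at 41.9 and 60.5 FPKM in the fully grown, 68.5 and 41.6 FPKM in the control and 44.3 and 54.3 FPKM in the treated oocytes.

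Counted over all members tested, both WT_MII libraries lay below both WT_FGO libraries for 15 members (12 cytosolic, 3 mitochondrial) and above for 4, beside 25.8% and 15.3% of all genes tested. The genes tested include those that passed the filter through WT_FGO alone. Of the 19 members that reached 60 reads, 11 lay below (9 cytosolic, 2 mitochondrial) and 4 above. Of all genes with as many reads, 34.4% lay below and 41.2% above, under a filter that favours genes higher at metaphase II. The 4 that lay higher were all cytosolic: Farsa, Iars, Tars and Wars. Tars, threonyl-tRNA synthetase, had 9.79 and 43.0 FPKM in WT_FGO and 86.8 and 86.0 in WT_MII, with 78.0 and 75.4 FPKM in Treat_MII. Its change of 2.00 ± 0.72 was the largest increase of a synthetase gene with maturation and did not pass (limma, adjusted p = 0.166), and the WT_FGO values rested on 2 and 10 reads. Wars was at or under 3 reads in both WT_FGO libraries and at least 2.04-fold higher in WT_MII.

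**Figure D4:**
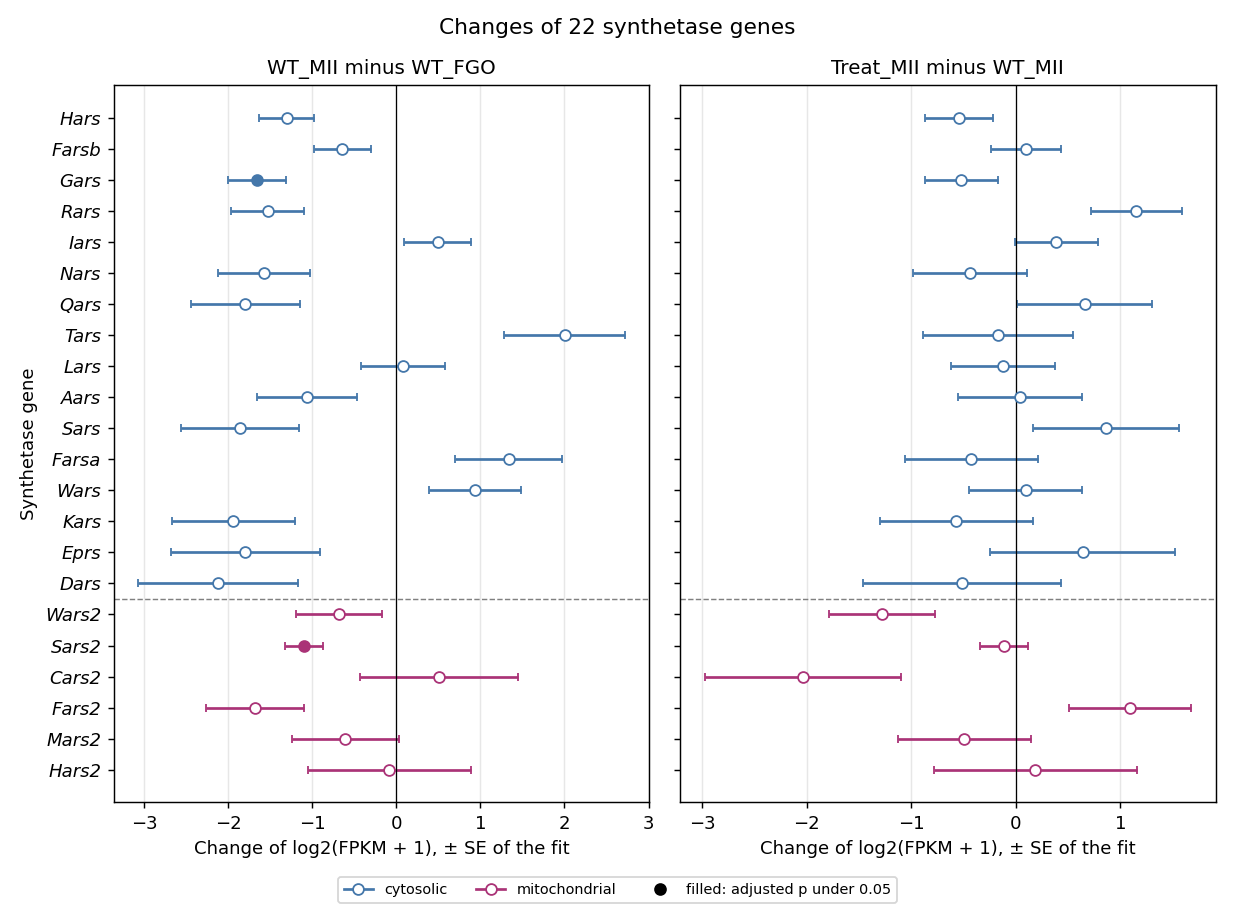
Change of log2(FPKM + 1) with its SE from the limma fit for the 22 synthetase genes whose mean reached 10 FPKM, for maturation (left) and treatment (right), with filled points where the adjusted p was under 0.05. Only Gars and Sars2 at maturation are filled, and most points of the left panel lie below 0 whereas those of the right panel lie on both sides.

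The granulosa markers of WT_FGO replicate 2 moved with some members. Dars was 13.7 FPKM in WT_FGO replicate 1 and 42.2 FPKM in replicate 2, Kars 38.4 and 72.4 FPKM, Eprs 14.0 and 32.9 FPKM, and Hars2 7 and 49.2 FPKM. These 4 genes are named because replicate 2, with 1399 FPKM of granulosa markers, was the higher. The order was the opposite for others, such as Farsa at 27.8 and 12.2 FPKM and Farsb at 278 and 195 FPKM. In all, replicate 2 was higher for 20 of the 34 members tested (58.8%) and lower for 13, beside 45.6% and 38.1% of all genes. Whether RNA of those cells contributed was not tested. Gars, Hars, Sars2 and Wars2 differed less between both WT_FGO libraries, and without WT_FGO replicate 2 limma called 4 members (3 lower, 1 higher) and voom called 6, all lower.

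Wars2 and Cars2 depended on a single control library. Wars2 had 1927 and 2063 FPKM in WT_FGO, 2187 and 703 in WT_MII and 469 and 554 in Treat_MII. WT_MII replicate 1 was thus as high as the fully grown oocytes and replicate 2 was closer to the treated ones. Cars2 had 182 and 189 FPKM in WT_FGO, 771 and 90.3 in WT_MII and 56.6 and 71.8 in Treat_MII. Here WT_MII replicate 1 was above every other library, with 244 reads where the other 5 libraries had between 33 and 40.

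Gaps between both control libraries were not limited to these genes. Between both control metaphase II libraries Cars2 differed by 3.08 and Wars2 by 1.64 on the log2 scale of FPKM, where the SD of this difference over the 2706 genes with at least 60 reads was 1.03. Of those genes 31, Cars2 among them, were at least as high in replicate 1 over replicate 2 as Cars2, and 129 at least as high as Wars2. Qars, of the cytosol, differed by 1.72, Nars by 1.24 and Aars by 1.04, all higher in replicate 1, and Sars2 by 0.15. Fars2, for mitochondrial phenylalanine, went the other way, with 27.4 FPKM in replicate 1 and 84.0 FPKM in replicate 2, a difference of -1.58. Cars2 overlaps Naxd on the opposite strand, and how strand was treated in the counting is not given in the sources used here. Reads of both genes thus cannot be told apart in the shared stretch. The same limit applies to stretches of Hars shared with Hars2, of Nars2 shared with C230038L03Rik and of Vars2 shared with Gm20483.

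**Figure D5:**
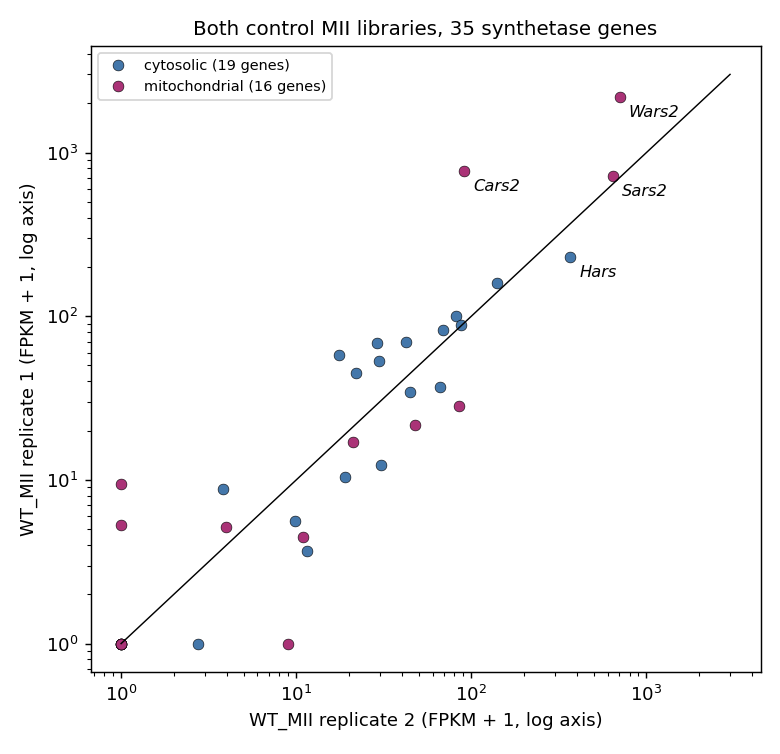
Level of the 35 synthetase genes in WT_MII replicate 1 against WT_MII replicate 2 (FPKM + 1, both axes log), with the line of equality. Cars2 (771 against 90.3 FPKM) and Wars2 (2187 against 703 FPKM) lie far above the line while Sars2 (715 against 645 FPKM) lies on it.

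The maturation change of Cars2 turned with the library. It was 0.51 ± 0.94 over all libraries (limma, adjusted p = 0.796), -1.03 without WT_MII replicate 1 and 2.05 without WT_MII replicate 2. That of Wars2 was -0.68 ± 0.51 over all libraries (limma, adjusted p = 0.490), -1.50 without WT_MII replicate 1 and 0.13 without WT_MII replicate 2. Voom called Wars2 lower with maturation (adjusted p = 0.00116), and this call did not hold without WT_MII replicate 2 (adjusted p = 0.664).

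The second comparison asked which synthetase genes changed with the treatment, between control and treated metaphase II oocytes. Limma called 0 of the 34 members and 0 of all 15127 genes (0%). At an unadjusted p under 0.05 there were 882 genes, among them 2 members, Rars (p = 0.0381, higher) and Wars2 (p = 0.0450, lower), both from the limma fit with 2 libraries a group, which is not an exact test. The median change was 0 for cytosolic members (9 higher, 9 lower and 1 at no change), 0 for mitochondrial members (7 higher, 7 lower and 1 at no change) and 0 for all genes. Both treated libraries lay above both control libraries for 7 members and below for 6, beside 16.2% and 15.6% of all genes.

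Voom called 2 members lower with treatment, Cars2 and Wars2, where 0.688% of all genes were called lower, 0.447% higher and 1.13% in either direction. Cars2 fell by 1.85 ± 0.37 (voom, adjusted p = 0.000267) and Wars2 by 1.17 ± 0.22 (voom, adjusted p = 6.56e-05), while over all alternatives the adjusted p of both reached 1. Both calls rested on WT_MII replicate 1. Without it the voom changes were -0.51 for Cars2 (adjusted p = 0.739) and -0.47 for Wars2 (adjusted p = 0.462), and voom called no member. The fit also called none without Treat_MII replicate 1, where the changes were -1.70 (adjusted p = 0.239) and -1.06 (adjusted p = 0.240). Without WT_MII replicate 2, limma called Cars2 as well, at -3.57 (adjusted p = 0.0223).

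Rars and Fars2 had the largest positive treatment changes among members with at least 60 reads. Rars, arginyl-tRNA synthetase, had 33.7 and 43.7 FPKM in WT_MII and 102 and 73.3 in Treat_MII, and the latter were near the WT_FGO values of 96.4 and 132 FPKM. Its treatment change was 1.15 ± 0.44 (limma, adjusted p = 0.842). Fars2 had 151 and 163 FPKM in WT_FGO, 27.4 and 84.0 in WT_MII and 115 and 93.9 in Treat_MII, a treatment change of 1.09 ± 0.58 (limma, adjusted p = 0.931). Neither passed in either fit. Farsb, Lars, Tars and Sars2 had treatment changes between -0.17 and 0.10 on the log2 scale, with SEs from 0.23 to 0.72, so changes of that size in either direction could not be resolved.

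The 4 members with a G-quadruplex motif had treatment changes on both sides of 0: Fars2 1.09, Aars 0.04, Aars2 -0.76 and Cars2 -2.03 on the log2 scale. Their median was -0.36, which is set by Aars and Aars2 as the middle values, against 0 for the other 30 tested members. Aars, alanyl-tRNA synthetase, had 47.5 and 86.7 FPKM in the fully grown oocytes, 43.8 and 20.9 FPKM in WT_MII and 31.2 FPKM in each Treat_MII library. Aars2 was at or under 3 reads in both groups, so neither its change nor the median of the 4 is a resolved shift. With 4 genes, 1 of them decided by a single library, the motif and the treatment change were not tested against each other.

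The third comparison set treated metaphase II against fully grown oocytes and shared its libraries with the other 2. Limma called 3 members lower, Gars, Hars and Sars2, where 1% of all genes were called lower, 2.86% higher and 3.87% in either direction. Gars fell by 2.18 ± 0.35 (adjusted p = 0.0287), Hars by 1.85 ± 0.33 (adjusted p = 0.0386) and Sars2 by 1.21 ± 0.23 (adjusted p = 0.0470). None of these limma calls held without a WT_MII or a Treat_MII library, and over the alternatives the adjusted p reached 0.171 for Gars, 0.235 for Hars and 0.383 for Sars2. Without WT_FGO replicate 1 Hars was lost (0.122), and without WT_FGO replicate 2 Hars (0.102) and Sars2 (0.0636). Voom called 7 lower, which were these 3 with Kars, Nars, Cars2 and Wars2. With a library left out, the highest adjusted p of voom was 0.00261 for Gars, 0.000825 for Hars and 0.00220 for Sars2, but 0.145 for Kars, 0.0741 for Nars and 0.137 for Cars2. In this contrast voom called 13.7% of all genes lower, 5.82% higher and 19.5% in either direction. Its median change over all genes was -1.17 here, against -0.53 in limma, so the push toward lower at few reads applies here too. Both treated libraries lay below both WT_FGO libraries for 19 members and above for 5, beside 28.9% and 16.6% of all genes. Here too the genes tested include those that passed the filter through WT_FGO alone.

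WT_MII replicate 1 did not enter the difference taken in this contrast. Both fits estimate the spread over all 3 groups, however, so that library did enter the SEs and p-values. For Wars2 the treated and fully grown libraries did not overlap. It fell by 1.97 ± 0.51 (limma, adjusted p = 0.103) and by 1.99 ± 0.23 in the voom fit (adjusted p = 1.01e-15), and the highest adjusted p of voom with any library left out was 7.90e-06. The difference of means was 3.90-fold.

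The members given by range were low throughout. Cars, Vars and Yars of the cytosol had means of 2.06 to 9.78 FPKM and at most 26.2 FPKM in any library, and for Yars the reads could not be recovered as whole numbers. The 10 mitochondrial ones (Aars2, Ears2, Iars2, Lars2, Nars2, Pars2, Rars2, Tars2, Vars2 and Yars2) had means of 0 to 9.31 FPKM and between 0 and 21 reads over all libraries. Vars2, for mitochondrial valine, had 6.36 and 14.0 FPKM in the fully grown oocytes, from 2 and 5 reads, and 2.71 and 2.17 FPKM in the treated oocytes. It had no footprint in either WT_MII library and was at least 2.18-fold lower than in WT_FGO, and voom called it (adjusted p = 0.00100, up to 0.222 over the alternatives). Of the remaining named members, Sars had 59.3 and 81.2 FPKM in WT_FGO, 11.3 and 29.6 in WT_MII and 22.5 and 51.9 after treatment, so both WT_FGO libraries were the highest. Mars2, which charges mitochondrial methionine tRNA, had 36.2 and 63.6 FPKM in the fully grown, 20.7 and 46.8 FPKM in the control and 25.8 and 18.6 FPKM in the treated oocytes, with overlapping groups at maturation. Hars2, for mitochondrial histidine, had 16 and 20 FPKM in the control and 15.9 and 26.3 FPKM in the treated oocytes, inside the wide range of its WT_FGO libraries.

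Genes that work beside the synthetases were read from the same fits. At maturation 22.8% of all genes had an unadjusted p under 0.05 in limma, and voom called 10.8% of all genes lower and 5.51% higher, against which these counts are to be read. Of the scaffold proteins of the multisynthetase complex and the synthetases outside the member list, 6 were tested and limma called 0 in any comparison, with 1 of 5 called lower by voom against WT_FGO. Of 7 tested genes of cytosolic elongation, both factors and genes that act on them, limma called 0 at maturation (3 at an unadjusted p under 0.05). Voom called 3 lower at maturation, Eef1a1, Eef1d and Eef2, which are named here after their values were seen. Eef1a1, which delivers the charged tRNA, had 153 and 262 FPKM in WT_FGO, 0 and 18.7 in WT_MII and 17.4 and 20.9 in Treat_MII. Eif5a, which helps ribosomes past difficult peptide bonds, was the highest of the list, with 551 and 283 FPKM in WT_FGO, 577 and 591 in WT_MII and 562 and 730 in Treat_MII, and passed in neither fit. Of 11 mitochondrial translation factors limma called 0 (2 at an unadjusted p under 0.05), and voom called 1 higher (Gfm1, a mitochondrial elongation factor) and 1 lower (Qrsl1, a subunit of the enzyme that makes glutaminyl-tRNA in mitochondria) at maturation.

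In the other lists limma called 3 genes at maturation. Sepsecs, which completes selenocysteine on its tRNA, was the single gene of 8 in its list that limma called, with 0 reads in both WT_FGO libraries and 28.1 and 31.5 FPKM in WT_MII, from 7 and 11 reads (adjusted p = 0.0153, at least 1.51-fold higher). Of 10 genes of the amino acid response, limma called 2 higher at maturation, where 3.67% of all genes were called higher. They were Slc7a11 and Slc3a2, which together form the transporter that brings cystine into the cell. Slc7a11 had 20.8 and 0 FPKM in WT_FGO, 578 and 645 in WT_MII and 816 and 677 in Treat_MII, which put WT_MII at least 31.3-fold above WT_FGO (adjusted p = 0.0357). Slc3a2 had 87.6 and 55.0 FPKM in WT_FGO and 225 and 243 in WT_MII, a rise of 1.74 ± 0.37 on the log2 scale (adjusted p = 0.0488). With treatment limma and voom called 0 genes of these 5 lists, and at an unadjusted p under 0.05 limma had 1 mitochondrial translation factor and 1 gene of the amino acid response.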

How the data were processed

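The authors deposited FPKM per gene for each Ribo-lite library, made from reads placed on mm10. The submitters' processing notes name cutadapt 1.14, Bowtie2 2.2.2 and STAR 2.5.3a, and the counting program and annotation are not given in the sources used here. Of 22442 entries, 26 with a repeated name were left out. Groups came from sample titles. FPKM times the union coding length (GENCODE M21) gave whole reads, within 0.02, in all libraries for 96.3% of genes. The 15127 genes whose mean reached 1 FPKM were fitted as log2(FPKM + 1) by lmFit and eBayes with trend (limma 3.58.1, R 4.3.3) on 3 groups and no covariate, with Benjamini-Hochberg adjustment and a threshold of 0.05. The recovered reads were fitted with limma voom (14544 genes). Floors of 3 reads, taken per library, cover counting error only, since PCR copies are not independent molecules. Both fits were tested on simulated data, where limma on log2(FPKM + 1) found fewer of the changed genes than voom, and both made false calls among genes with few reads. A replicate block was not used, because deviations of same-numbered libraries correlated at 0.0342, 0.0176 and 0.0189. Values in every library were given for members whose mean reached 10 FPKM or that were called in a contrast. Genes of other lists were named if called or among the 3 highest of their list. The members and lists were chosen with earlier results of these data known. The depth per library is given with the first values.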

Additional observations from a re-analysis of the deposited data

How the results depend on the processing

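Of the counts of synthetase genes called, the one at maturation (2) was 1 with no filter and with quantile normalization, and 0 with median centring, a common total, no trend, only the compared groups or the replicate block. It was 9 with voom, 9 with voom and the replicate block, and 4 among genes with at least 60 reads, and it ranged from 0 to 12 with a library left out of either fit. The count against WT_FGO (3) was 0 with median centring, no trend, only the compared groups or the replicate block, 7 with voom with or without the block, 5 at 60 reads, and 0 to 11 with a library left out. The count at treatment (0) was 2 with voom with or without the block, and 0 to 2 with a library left out. The labels do not say whether same-numbered libraries were pairs, so the block speaks only of a shared number. The 60-read filter and the voom fits without a library or with the block were added after seeing the data.

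With median centring the median change at maturation was -0.91 for cytosolic and -0.28 for mitochondrial members, and against WT_FGO -0.32 and -0.40. With quantile normalization the cytosolic medians were -1.14 and -0.59. With a library left out of either fit the cytosolic medians ranged from -1.66 to -0.97 at maturation and from -1.25 to -0.59 against WT_FGO, and the mitochondrial one against WT_FGO from -1.73 to -0.73. The summed FPKM with a common total was 1088 (WT_MII) and 975 (Treat_MII) for cytosolic and 1360 (Treat_MII) for mitochondrial members. Without the highest member the cytosolic sums were 1321, 756 and 795 in WT_FGO, WT_MII and Treat_MII, and the mitochondrial ones 1947 in WT_FGO and 873 in Treat_MII, which was 1321 without Cars2.

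Among the 22 members whose mean reached 10 FPKM, changes that turned sign passed the test on neither side, except Cars2, which limma and voom called at 2.05 and 2.02 in the maturation contrast without WT_MII replicate 2, and Wars2, which voom called lower at maturation over all libraries. At maturation the range with a library left out was -0.32 to 0.43 for Lars, -1.05 to 2.05 for Cars2, -1.41 to 1.24 for Hars2 and -1.51 to 0.13 for Wars2. Lars was also -0.00093 with voom and -0.00057 with voom and the block, Hars2 0.53 with median centring and 0.42 with quantile normalization, and Mars2 0.011 with median centring. With treatment, the ranges were -0.50 to 0.56 for Aars (-0.031 with a common total), -1.23 to 0.092 for Dars, -0.22 to 1.50 for Eprs, -0.87 to 0.00092 for Farsa, -0.0012 to 0.20 for Farsb, -0.50 to 0.23 for Lars, -1.08 to 0.18 for Nars, -0.23 to 1.52 for Qars, -0.35 to 0.51 for Wars, -0.23 to 0.53 for Hars2 and -1.06 to 0.077 for Mars2. Against WT_FGO, they were -0.34 to 0.22 for Lars and -1.31 to 1.43 for Hars2. Median centring gave 0.16 for Farsb, 0.66 for Lars, 0.32 for Rars and 0.11 for Fars2, quantile normalization 0.40 for Lars, voom -0.21 for Hars2, and voom with the block -0.15 for Hars2.

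Of the members with lower means, 9 turned sign in some contrast. Of these only Ears2 also passed in the same contrast in which it turned, with 4 reads that all lay in Treat_MII replicate 2. Without Treat_MII replicate 1 its limma change was 3.36 with treatment and against WT_FGO. Voom ranged from -0.76 to 2.67 and from -1.73 to 1.71. Iars2 and Lars2, with 2 and 8 reads, were called lower under some settings, in contrasts other than those in which they turned.

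Depth limits what these libraries can show. Only 19 of the 35 members had at least 60 reads over the 6 libraries, and 11 had fewer than 20. With 2 libraries a group, a single library such as WT_MII replicate 1 can decide a member's change.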
